A study of Mus musculus with 4 samples.

Results

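The 10 genes described here encode chemokine receptors (Ccr1, Ccr2, Ccr6, Ccr7, Ccr9, Cxcr3, Cxcr4, Cxcr5, Cxcr6 and Cx3cr1), chosen by name from the 14697 genes counted in single peripheral blood cells of mice. Their levels were followed across B, T, NK and dendritic cells (DC) and monocytes. Of 14588 cells, 9318 fell in the B gate, 2363 in the T gate, 330 in the NK gate, 587 in the monocyte gate and 46 in the DC gate. The mice were C57BL/6 females without any genetic change or treatment, aged 4 months (young) or 24 months (old). Each age had 2 samples, and each sample was a pool of blood from 2 mice, layered on a density medium and depleted of red cells by lysis, so that n = 2 pools per age and single mice cannot be told apart. Transcripts were read from the 3′ end in droplets, and each molecule was counted by its unique molecular identifier (UMI).

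Chemokine receptors are G protein-coupled receptors with which a leukocyte senses small secreted proteins, the chemokines, and moves toward their source. The set of receptors on a cell decides which tissues it can enter. Ccr7 and Cxcr5 guide lymphocytes into and within lymph nodes and follicles, Ccr9 and Ccr6 are known for homing to the gut and mucosa, Cxcr3 and Cxcr6 for entry into inflamed tissue, Ccr2 for the exit of monocytes from bone marrow, Cx3cr1 for patrolling monocytes, Ccr1 for inflammatory recruitment, and Cxcr4 for retention in bone marrow. Naive T cells carry Ccr7, and many effector and memory T cells lose it and gain Cxcr3.

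In GENCODE vM21 on GRCm38 (mm10), all 10 genes are annotated as protein-coding, and 6 of them lie on chromosome 9. Ccr9, Cxcr6, Ccr1 and Ccr2 are neighbours there, within 435.1 kb (chr9:123678439-124113557), although their levels went different ways across the gates. Ccr7 lies at chr11:99144196-99155077 (minus strand), Cxcr3 at chrX:101731535-101734269 (minus strand) and Cx3cr1 at chr9:119901616-120069879 (minus strand). RefSeq promoter windows on GRCm38.p6, 250 bases before to 50 after a transcription start, were at hand for 8 of the 10 genes in 9 windows. The windows of Cxcr3 (chrX:101734098-101734397, minus strand), Cxcr6 (chr9:123806227-123806526, plus strand), Cx3cr1 (chr9:120068247-120068546, minus strand) and Ccr2 (chr9:124101933-124102232, plus strand) are shown because these genes set the T cell and monocyte patterns apart. Capitals mark TGTGGT, the core recognised by Runx factors, on either strand (read as ACCACA on the other).
Cxcr3: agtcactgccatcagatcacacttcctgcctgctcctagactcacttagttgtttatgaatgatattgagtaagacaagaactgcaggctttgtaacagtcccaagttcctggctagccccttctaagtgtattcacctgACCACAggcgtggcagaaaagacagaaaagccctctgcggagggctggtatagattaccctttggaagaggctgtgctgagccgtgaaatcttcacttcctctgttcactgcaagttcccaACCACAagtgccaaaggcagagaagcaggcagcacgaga
Cxcr6: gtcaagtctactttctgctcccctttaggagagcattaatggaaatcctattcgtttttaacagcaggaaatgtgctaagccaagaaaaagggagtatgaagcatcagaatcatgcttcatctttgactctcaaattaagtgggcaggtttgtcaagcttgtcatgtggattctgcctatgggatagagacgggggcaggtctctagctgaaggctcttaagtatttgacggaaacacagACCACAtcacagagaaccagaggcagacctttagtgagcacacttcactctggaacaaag
Cx3cr1: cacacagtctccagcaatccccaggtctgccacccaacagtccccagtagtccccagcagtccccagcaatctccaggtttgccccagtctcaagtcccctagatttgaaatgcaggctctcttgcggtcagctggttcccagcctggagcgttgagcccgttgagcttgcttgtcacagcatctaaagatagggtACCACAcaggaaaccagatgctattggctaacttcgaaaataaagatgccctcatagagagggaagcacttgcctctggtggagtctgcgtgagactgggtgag
Ccr2: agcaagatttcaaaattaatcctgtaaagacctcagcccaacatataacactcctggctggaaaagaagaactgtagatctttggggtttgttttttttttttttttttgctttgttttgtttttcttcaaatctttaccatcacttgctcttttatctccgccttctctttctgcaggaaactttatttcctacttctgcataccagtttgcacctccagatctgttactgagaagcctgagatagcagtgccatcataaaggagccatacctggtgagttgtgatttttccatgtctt
The core occurred in 5 of the 9 windows (Ccr1, Ccr6, Cx3cr1, Cxcr3 and Cxcr6) and in 16.8% of all 32851 windows of the same length. It was chosen for display among 9 motifs after the matches had been counted. The PU.1 core GAGGAA stood in 3 of the 9 windows against 28.3% of all windows, and the Klf core CACCC in 3 of 9 against 57.5%. A match is a run of letters and was not tested for binding.

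The samples held 2187 to 4642 cells and 9521253 to 18658072 UMIs each, with a median of 2233 to 3482 UMIs per cell. Pairs of samples shared 11 to 24 cell barcodes. A cell entered a gate by raw UMIs of genes other than the receptors, such as Cd79a and Cd79b for B, Cd3d, Cd3e and Cd3g for T, Ncr1, Klre1 and Klrb1c for NK, Csf1r and Lyz2 for monocytes and Cd209a for DC, and 13.3% of cells stayed outside. Levels are in CPM, the UMIs of a gene per 1000000 UMIs of all cells of a gate in a sample. The summed marker lists of B, T, NK cells and monocytes were each highest in their own gate in every sample. Cells of the DC gate held Cd209a at 709 to 1368 CPM and also the monocyte list at 9058 to 25862 CPM, so that DC stands here for cells chosen by Cd209a. The T gate held 1060 and 854 cells in the young pools and 254 and 195 in the old ones, and the monocyte gate held 83 and 115 against 236 and 153. Transcripts of 5 platelet genes summed to 0 to 11.5 CPM in the young and 206 to 1327 CPM in the old B, T, NK and monocyte gates. The age tests were repeated without cells that had at least 3 UMIs of Ppbp, Pf4 and Gng11 or at least 5% haemoglobin UMIs. The same receptors passed in each gate. The part of such RNA left in the other cells was not tested. In sums over cells, fewer cells with a receptor and less receptor RNA per cell cannot be told apart. Receptor UMIs also lay outside the gates, from 6.53% of the Ccr6 UMIs to 48.2% of the Ccr2 UMIs.

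**Figure D1:**
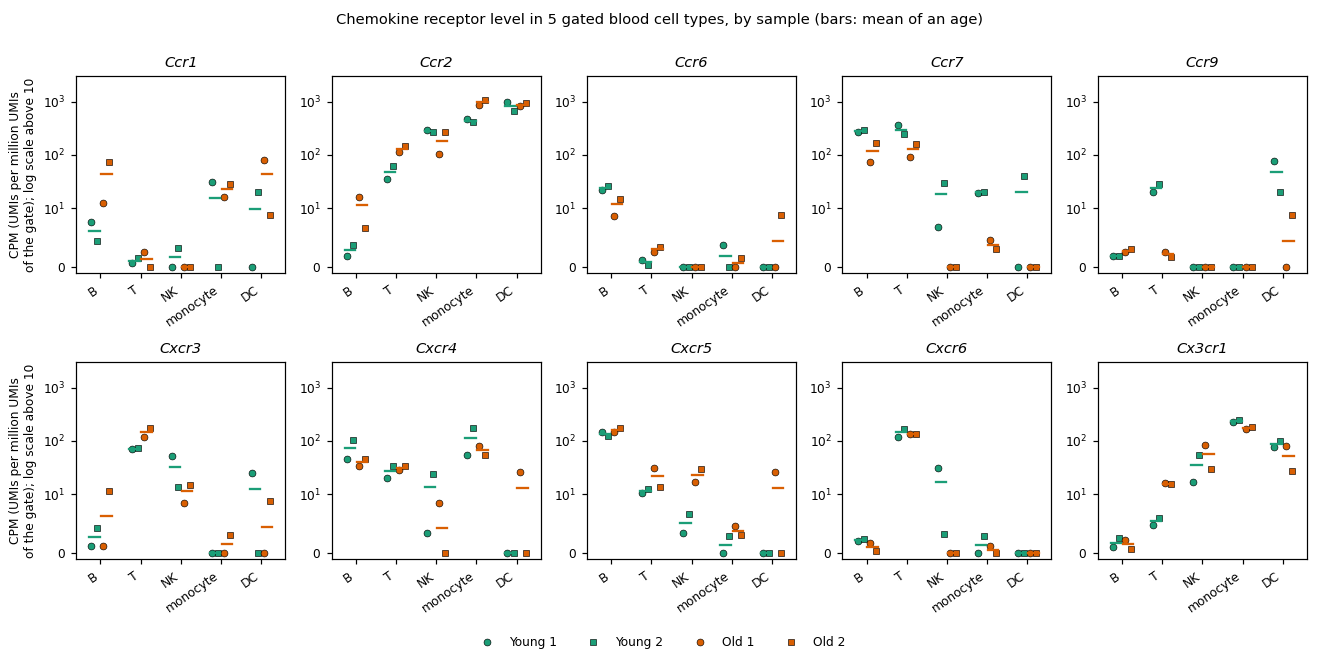
Level of each of the 10 receptors (y axis, CPM, linear to 10 and logarithmic above) in the B, T, NK, monocyte and DC gates (x axis); green points are the 2 young and orange points the 2 old samples, circles sample 1 and squares sample 2, and bars the mean of an age. By mean CPM, Cxcr5 and Ccr6 were highest in B cells, Cxcr3 and Cxcr6 in T cells and Cx3cr1 in monocytes, and Ccr7 was shared by B and T cells.

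Cxcr3 and Cxcr6 were highest in T cells, Cxcr5 in B cells, and Cx3cr1 and Cxcr4 in monocytes, each above the next gate in the test below. For Ccr1, Ccr2, Ccr6, Ccr7 and Ccr9 the highest gate did not pass that test against the next one. Over 20 sums (5 gates in 4 samples, with the sample as a block), 64 of the 100 contrasts of a receptor between a pair of gates were called by edgeR's quasi-likelihood test (Benjamini-Hochberg adjusted p under 0.05 over 12023 genes). Of the 10 receptors, 9 were called between B and T cells, where 29.9% of all genes were called, 9 between B and NK cells (20.8% of genes), 8 between B cells and monocytes (44.4%), 9 between T cells and monocytes (41%), 7 between T and NK cells (11.1%) and 6 between NK cells and monocytes (23.3%). Against the 46 cells of the DC gate, 5 were called from B cells (15.3% of genes), 6 from T cells (16.1%), 2 from NK cells (10.8%) and 3 from monocytes (5.36%). In each of these comparisons the share of receptors was above the share of all genes. The receptors were chosen with earlier results of these data known, so nothing about the family is concluded from this.

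Ccr7, the receptor for the lymph node chemokines Ccl19 and Ccl21, was the receptor with the most UMIs, 8127 in all, of which 65% lay in B and 23.2% in T cells. Its level in B cells was 265 and 290 CPM in the young and 73.2 and 168 CPM in the old pools, and in T cells 357 and 242 CPM in the young and 93.2 and 161 CPM in the old. Both old pools lay below both young pools in either gate. The means over the 4 samples, 213 ± 114 CPM in T and 199 ± 99.1 CPM in B cells (SD, n = 4), lay within each other's spread, and the difference was not called (log2 difference of B minus T -0.10, SE 0.15, adjusted p = 0.70). Monocytes (3.01 to 20.4 CPM), NK cells (0 to 30.0 CPM) and the DC gate (0 to 39.6 CPM) were far lower, and no pair of these 3 gates was called. With every cell thinned to 1000 UMIs, 24.2% of young (95% exact binomial interval 22.3 to 26.2) and 8.46% of old T cells (6.06 to 11.4) had a Ccr7 UMI, against 1.52% of young and 0.257% of old monocytes, which should lack it. Unthinned, the T cell shares were 47.3% and 19.6%. Intervals here cover counting error only.

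The lower Ccr7 of old T cells passed the test within the gate and that of old B cells did not. The age difference of Ccr7 was not called unequal between the gates (edgeR F test of the age-by-gate terms, adjusted p = 0.76). In T cells Ccr7 fell by 1.36 on the log2 scale (SE 0.21, edgeR adjusted p = 0.0019), with both old pools below both young ones. Of the 3 receptors tested in T cells, which needed a UMI in at least 10% of the cells of each age, 2 were called (Ccr7 and Cxcr3), where 10.1% of 2615 genes were called. In Cd8 T cells (cells of the T gate with Cd8a or Cd8b1 and no Cd4), Ccr7 was 308 and 206 CPM in the young and 58.5 and 105 CPM in the old pools and fell by 1.79 (SE 0.27, adjusted p = 0.0040). There too 2 of 3 tested receptors were called, against 2.78% of 2766 genes. In Cd4 T cells the values were 380 and 337 CPM against 192 and 387 CPM, which overlap between the ages, and without old replicate 2 the difference was called (adjusted p = 0.025). Ccr7 was the only receptor tested there, and 0 were called by edgeR (adjusted p = 0.40), by DESeq2 or before adjustment at 0.05, where 1.74% of genes were called. Among Cd4 T cells without S100a6, a gene of antigen-experienced lymphocytes, Ccr7 was 409 and 389 CPM in the young and 427 and 510 CPM in the old, and among those with S100a6 it was 159 and 129 CPM against 132 and 167 CPM. The level hence differed between these kinds of Cd4 cells more than between the ages. The cells without S100a6 numbered 167 and 108 in the young pools but 7 and 8 in the old ones, so the old values rest on 8 and 13 UMIs. Among Cd8 T cells without Ccl5, a chemokine of effector and memory cells, Ccr7 was 453 and 462 CPM in the young pools, and the old pools held 1 and 12 such cells with 0 and 11 UMIs. Among those with Ccl5 it was 200 and 77.7 CPM in the young and 55.3 and 69.9 CPM in the old. The makeup of the T gate thus moved along with Ccr7, and its part in the fall was not tested.

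**Figure D2:**
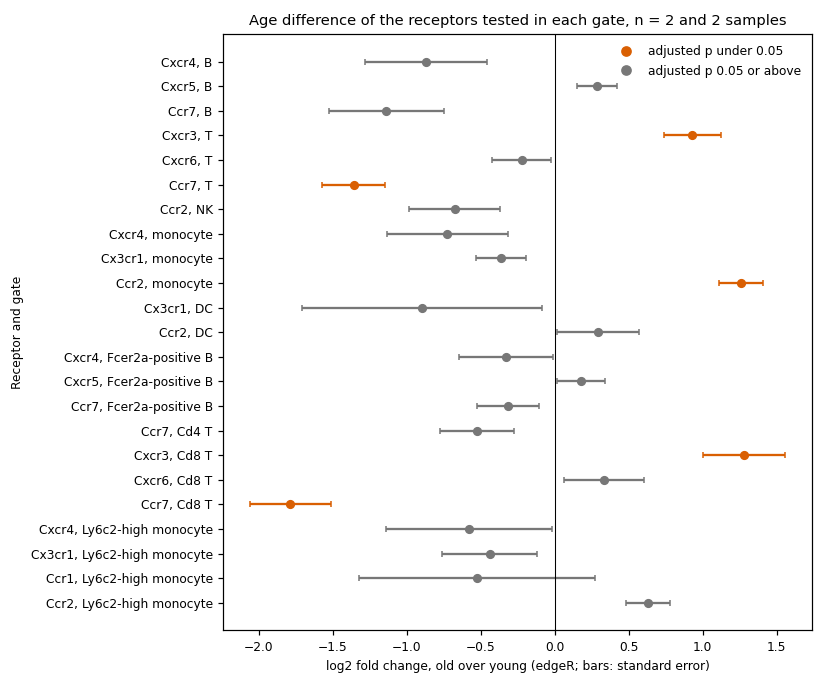
Log2 fold change, old over young (x axis, points, with bars of 1 standard error), of every receptor that passed the filter on detection in a gate (y axis), n = 2 young and 2 old samples. Orange points passed an adjusted p of 0.05, which are Cxcr3 and Ccr7 in T and in Cd8 T cells and Ccr2 in monocytes; Ccr7 in B cells lay at -1.14 and did not pass.

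In B cells, 3 receptors were tested (Ccr7, Cxcr4 and Cxcr5) and 0 were called by edgeR or DESeq2, with 1 at an unadjusted p under 0.05, while 7.57% of 2680 genes were called. Ccr7 had a log2 difference of -1.14 (SE 0.39, adjusted p = 0.13), and the old pools, at 73.2 and 168 CPM, differed from each other by more than the young ones did. Without old replicate 1 or without old replicate 2 the difference was called, at -0.64 and -1.87 on the log2 scale. B cells were further divided into Fcer2a-positive (follicular-like), Vpreb3-positive (young emigrant-like) and S100a6-positive cells. In Fcer2a-positive cells Ccr7 was 299 and 327 CPM in the young and 187 and 308 CPM in the old pools, and in Vpreb3-positive cells 235 and 292 CPM against 171 and 290 CPM, so the ages overlapped in both. In S100a6-positive cells it was lower, at 109 and 100 CPM in the young and 21.1 and 55.8 CPM in the old. These cells made up 173 and 114 of the young B cells but 1795 and 475 of the old ones. Among Fcer2a-positive B cells, 3 receptors were tested and 0 were called by either tool or at an unadjusted p under 0.05 (Ccr7 -0.31, SE 0.21, adjusted p = 0.57), where 0.379% of genes were called.

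Cxcr5, the follicle-homing receptor for Cxcl13, was a B cell gene with 88.9% of its 5339 UMIs in the B gate. Its level was 149 and 125 CPM in the young and 146 and 172 CPM in the old pools. The ages overlapped, and the mean of 148 ± 19.1 CPM (SD, n = 4) had the smallest relative spread of the receptors in B cells (log2 difference 0.29, SE 0.14, adjusted p = 0.22). In T cells it was 10.3 and 12.2 CPM against 30.6 and 13.5 CPM, and B cells lay above T cells by a log2 difference of 3.28 (SE 0.19, adjusted p = 5.3e-25). Unlike Ccr7, Cxcr5 was as high in S100a6-positive B cells (149 to 194 CPM) as in Fcer2a-positive ones (112 to 159 CPM), as the plot of B cell subsets shows. With cells thinned to 1000 UMIs, 13.3% of young and 13.8% of old B cells had a Cxcr5 UMI (28.0% and 40.9% unthinned), against 0% and 0.257% of monocytes.

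Ccr6, the receptor for Ccl20, had 536 UMIs, 91.2% of them in B cells, at 21.6 and 25.8 CPM in the young and 8.69 and 14.9 CPM in the old pools. Both old pools were lower, but too few cells had a UMI for the filter on detection in B cells. Under edgeR's own filter on summed counts the log2 difference was -0.97 (SE 0.30, adjusted p = 0.12). Fcer2a-positive B cells held 27.2 and 29.4 CPM in the young and 22.4 and 33.9 CPM in the old, which overlap, and S100a6-positive B cells held 8.11 and 6.56 CPM against 1.27 and 3.22 CPM. B cells lay above T cells by 3.83 (SE 0.41, adjusted p = 1.8e-12), and the NK gate had 0 UMIs, which at 3 counts per sample allows up to 10.0 CPM in its deepest and 44.0 CPM in its shallowest sample. The difference between B cells and the DC gate, which had 1 UMI, was not called (2.51, SE 1.11, adjusted p = 0.12).

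Cxcr4, the receptor for Cxcl12, was found in monocytes, B cells and T cells. It was 53.5 and 177 CPM in young and 81.6 and 54.2 CPM in old monocytes, 46.4 and 102 CPM in young and 33.9 and 44.7 CPM in old B cells, and 20.3 and 33.9 CPM against 27.9 and 33.9 CPM in T cells. Young sample 2 was the highest in monocytes and in B cells and lay above young sample 1 in each. Monocytes lay above B cells by 0.57 (log2 difference of B minus monocyte -0.57, SE 0.19, adjusted p = 0.011) and B above T cells by 1.02 (SE 0.19, adjusted p = 1.1e-05). No age difference of Cxcr4 was called in B cells (log2 difference -0.87, SE 0.41, adjusted p = 0.22) or monocytes (-0.73, SE 0.41, adjusted p = 0.45). The lower mean of the old pools rests on young sample 2. Without young replicate 2 the log2 difference was -0.12 in B cells and turned to 0.46 in monocytes, whereas without young replicate 1 it was -1.37 and -1.29 and was called in monocytes (adjusted p = 0.028). Without the TMM factor it was called in B cells (adjusted p = 0.029). Young sample 2 also carried more red cell RNA than young sample 1 in B cells (88857 against 16130 CPM) and in monocytes (42752 against 29473 CPM). Without the cells rich in platelet or red cell RNA, Cxcr4 was again not called in either gate. The part of red cell RNA in the remaining cells was not tested.

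Ccr1 showed the most uneven level among the samples. In B cells it was 7.62 and 4.51 CPM in the young pools, 12.5 CPM in old sample 1 and 73.3 CPM in old sample 2. That sample held 482 of the 728 Ccr1 UMIs of the B gate, in 325 of 1547 cells. In S100a6-positive B cells it was 29.0 and 14.8 CPM in the young, 16.1 CPM in old sample 1 and 103 CPM in old sample 2, and in Fcer2a-positive B cells old sample 2, at 32.0 CPM, was again above the others (2.73 to 4.77 CPM). Monocytes of old sample 2 had 28.6 CPM, less than its B cells, and the 9 monocyte markers summed to 453 CPM in its B gate against 639 CPM in that of old sample 1. The high level in B cells thus stands on 1 pool, and the part of monocyte RNA in it was not tested. Ccr1 was too sparse for the filter on detection in B cells. Under edgeR's own filter on summed counts its log2 difference was 2.88 (SE 0.88, adjusted p = 0.11), and 0 of 10 receptors were called there, with 4 at an unadjusted p under 0.05, where 6.31% of genes were called. With no filter Ccr1 (adjusted p = 0.047) and Ccr2 (2.11, SE 0.46, adjusted p = 0.025) were called in B cells, 2 of 10 receptors where 6.45% of genes were. Ccr1 in monocytes lay in Ly6c2-high cells, with 8, 0, 14 and 19 UMIs in the monocyte gate and 8, 0, 14 and 14 in its Ly6c2-high cells (young 1, young 2, old 1 and old 2).

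**Figure D3:**
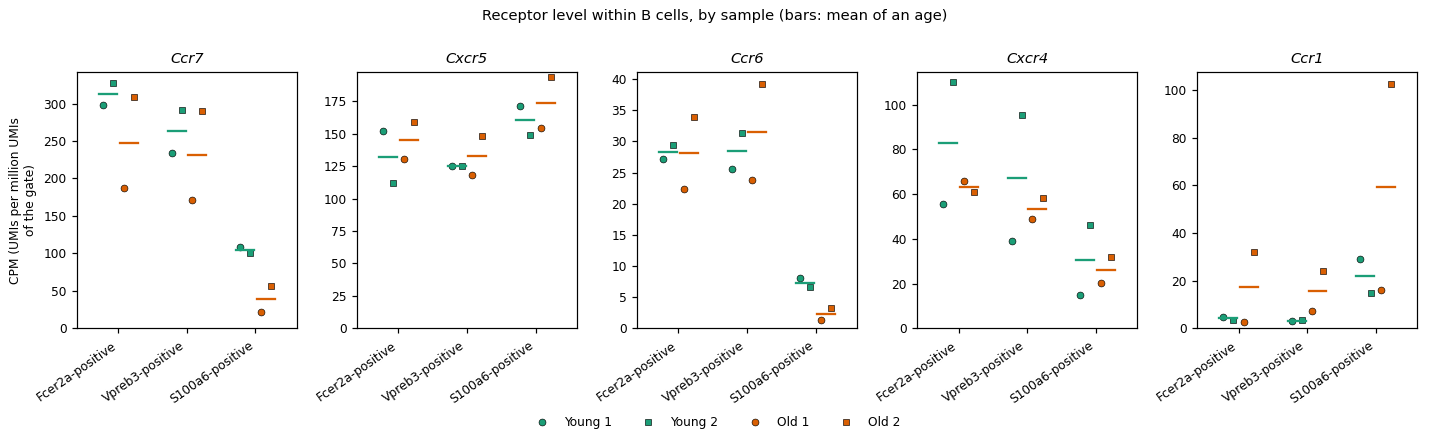
Levels of Ccr7, Cxcr5, Ccr6, Cxcr4 and Ccr1 (y axes, CPM, each from 0) in Fcer2a-positive, Vpreb3-positive and S100a6-positive B cells (x axis); green points are young and orange points old samples, circles sample 1 and squares sample 2, bars the mean of an age. Ccr7 and Ccr6 were lowest in S100a6-positive cells, Cxcr5 was alike in all, and Ccr1 was high in old sample 2.

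Cxcr3, the receptor for interferon-induced chemokines such as Cxcl10, rose in old T cells. It was 70.7 and 72.5 CPM in the young and 118 and 178 CPM in the old pools, with no overlap, a log2 fold change of 0.93 (SE 0.19, edgeR adjusted p = 0.0093). In Cd8 T cells it was 68.3 and 47.5 CPM against 117 and 188 CPM (1.28, SE 0.28, adjusted p = 0.029). Without old replicate 2 neither was called (adjusted p = 0.054 in T and 0.072 in Cd8 T cells), with folds of 0.62 and 0.93. Thinned to 1000 UMIs, 5.54% of young (4.56 to 6.66) and 11.8% of old T cells (8.97 to 15.2) had a Cxcr3 UMI (13.8% and 28.5% unthinned), against 0 of 198 young and 0 of 389 old monocytes, which allow shares of up to 1.85% and 0.944% (upper bounds of the exact interval). In Cd4 T cells Cxcr3 was 51.7 and 72.5 CPM in the young and 157 and 234 CPM in the old pools. It was too sparse for the filter on detection, and under edgeR's own filter on summed counts it rose by 1.45 (SE 0.34, adjusted p = 0.046), 1 of 4 receptors called where 2.15% of genes were. By subset, Cxcr3 was high in Cd4 T cells with S100a6 in both ages (300 and 331 CPM against 161 and 335 CPM), and low in those without it (18.0 and 29.7 CPM against 107 and 118 CPM, the old values from 2 and 3 UMIs). In Cd8 T cells with Ccl5 it was 136 and 77.7 CPM in the young and 122 and 180 CPM in the old, so the ages overlapped. NK cells held 8.51 to 51.6 CPM and lay below T cells by 2.14 (SE 0.38, adjusted p = 7.6e-06).

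Cxcr6, the receptor for Cxcl16, was mainly a T cell gene, with 74.2% of its 1316 UMIs in the T gate and 21.0% outside the gates. T cells held 120 and 167 CPM in the young and 133 and 132 CPM in the old pools, overlapping values with no age difference called (-0.22, SE 0.20, adjusted p = 0.58). T cells lay above NK cells by 3.87 (SE 0.38, adjusted p = 2.1e-13). Within the gate the source differed. Klrb1c-positive T cells, which carry the NK receptor NK1.1 as NKT cells do, held 650 and 668 CPM in the young and 82.2 and 62.4 CPM in the old pools. There were 85 and 92 such cells in the young pools but 15 and 12 in the old ones, and 75 of the 177 young (42.4%) against 3 of the 27 old cells (11.1%, 95% exact binomial interval 2.35 to 29.2) had a Cxcr6 UMI after thinning (69.5% and 25.9% unthinned). Cd8 T cells with Ccl5 held 66.0 and 153 CPM against 119 and 99.8 CPM, and Cd4 T cells with S100a6 held 423 and 441 CPM in the young, 176 CPM in old sample 1 and 0 UMIs in the 17 cells of old sample 2. The like level of the whole T gate at both ages hence held unlike levels within it. Cxcr3 in Klrb1c-positive T cells was also lower in the old pools, at 65.8 and 62.4 CPM against 207 and 232 CPM, the opposite of the whole T gate. These cells were described without a test.

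**Figure D4:**
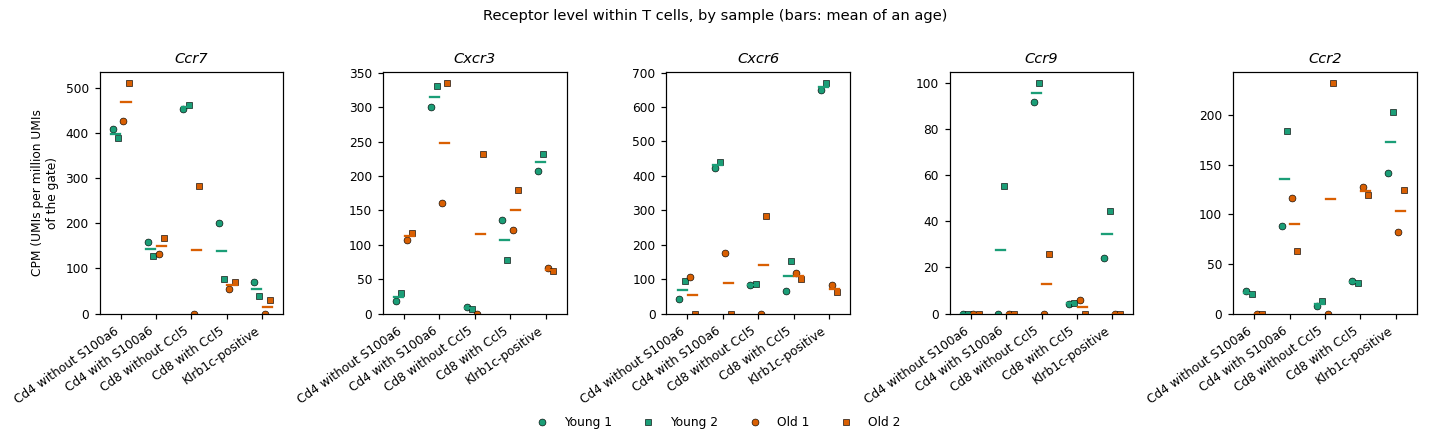
Levels of Ccr7, Cxcr3, Cxcr6, Ccr9 and Ccr2 (y axes, CPM, each from 0) in subsets of the T gate (x axis); green points are young and orange points old samples, circles sample 1 and squares sample 2, bars the mean of an age. Ccr7 was highest in Cd4 cells without S100a6 and Cd8 cells without Ccl5, Ccr9 in young Cd8 cells without Ccl5, and Cxcr6 in young Klrb1c-positive cells; old Cd8 cells without Ccl5 numbered 1 and 12.

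Ccr9, the receptor for the gut and thymus chemokine Ccl25, was rare, with 308 UMIs, of which 44.5% lay in T cells, 25.6% in B cells and 28.2% outside the gates. T cells held 20.0 and 28.4 CPM in the young (62 and 72 UMIs) and 2.66 and 1.69 CPM in the old pools (2 UMIs and 1). Cd8 T cells held 46.4 and 37.0 CPM against 5.57 and 4.18 CPM, and those without Ccl5 held 91.6 and 99.8 CPM in the young, where those with Ccl5 held 4.13 and 4.71 CPM. Cd8 T cells without Ccl5 numbered 138 and 55 in the young pools but 1 and 12 in the old ones, with 0 UMIs and 1 of Ccr9. The part of this makeup in the lower Ccr9 of the old pools was not tested. NK cells and monocytes had 0 UMIs in every sample. Under edgeR's filter on summed counts Ccr9 was tested and fell by 3.49 in T cells (SE 0.57, adjusted p = 0.0065) and by 3.08 in Cd8 T cells (SE 0.55, adjusted p = 0.010). With that filter 4 of 8 receptors were called in T cells (Ccr7 and Ccr9 lower, Cxcr3 and Ccr2 higher in the old), where 3.92% of genes were, and the same 4 of 8 in Cd8 T cells, where 2.43% were. The DC gate had 76.1 and 19.8 CPM in the young and 0 and 8.89 CPM in the old, from 5 UMIs in all.

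Ccr2, the receptor for Ccl2, was highest in the DC gate and in monocytes. It was 990 and 654 CPM in the young and 813 and 925 CPM in the old DC gate, which overlap, and 470 and 410 CPM in young against 878 and 1086 CPM in old monocytes, which do not. The means of 846 ± 147 and 711 ± 325 CPM (SD, n = 4) lay within each other's spread, and the difference was not called (log2 difference of monocytes minus DC 0.05, SE 0.25, adjusted p = 0.99). NK cells (102 to 292 CPM) lay below monocytes by 1.5 (SE 0.25, adjusted p = 1.1e-06), and T cells (34.5 to 147 CPM) below NK cells by 1.47 (SE 0.27, adjusted p = 1.5e-05).

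In monocytes Ccr2 rose by 1.26 on the log2 scale with age (SE 0.15, edgeR adjusted p = 0.0026), in 2 of 2 old pools, 1 of 3 receptors called where 1.57% of 3056 genes were. Without young replicate 2 the fold was 1.16 but no gene in the gate was called (adjusted p of Ccr2 = 0.14). Thinned to 1000 UMIs, 21.7% of young (16.2 to 28.1) and 40.4% of old monocytes (35.4 to 45.4) had a Ccr2 UMI (39.4% and 60.9% unthinned), and 0.281% and 0.831% of B cells did. Ly6c2-high (classical) monocytes numbered 19 and 19 in the young pools but 92 and 77 in the old ones, and Ly6c2-low (patrolling) ones 58 and 86 against 123 and 62. In Ly6c2-high cells Ccr2 was 1059 and 848 CPM in the young and 1456 and 1437 CPM in the old, without overlap and without a call (log2 difference 0.63, SE 0.15, adjusted p = 0.29), though it was called without young replicate 1 (adjusted p = 0.0023). Of the 4 receptors tested there 0 were called by edgeR or DESeq2, with 1 at an unadjusted p under 0.05, and 0.0286% of genes were called. In Ly6c2-low cells it was 150 and 217 CPM against 159 and 481 CPM, which overlap. The share of Ly6c2-high cells moved with Ccr2 of the gate, and its part in the rise was not tested.

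The age difference of Ccr2 was unequal between the gates (F test of the age-by-gate terms, adjusted p = 4.9e-12), as was that of Ccr9 (adjusted p = 0.0033), 2 of 10 receptors where 3.53% of 12023 genes were called. DESeq2 did not call Ccr2 (adjusted p = 0.081) and gave Ccr9 no adjusted p (unadjusted p = 0.00077), so it did not judge Ccr9. The call of Ccr9 was lost without any 1 sample, with stricter gates (adjusted p = 0.30) and after thinning (0.19). In NK cells Ccr2 was 292 and 270 CPM in the young and 102 and 264 CPM in the old pools, and 0 of 1 receptor tested was called by edgeR or DESeq2, with 1 at an unadjusted p under 0.05 (log2 difference -0.68, SE 0.31, adjusted p = 0.75), where 0.454% of genes were called. That direction rests on old sample 1 (12 UMIs in 48 cells), and without old replicate 1 the log2 difference was 0.082. In the DC gate 2 receptors were tested (Ccr2 and Cx3cr1) and 0 were called by edgeR, by DESeq2 or at an unadjusted p under 0.05, where 0.0939% of genes were called, from 7 to 18 cells a sample. In T cells Ccr2 was 34.5 and 60.7 CPM in the young and 113 and 147 CPM in the old, and in Cd8 T cells 19.3 and 21.1 CPM against 123 and 138 CPM. Under the filter on summed counts it rose by 1.34 in T cells (SE 0.27, adjusted p = 0.020) and by 2.62 in Cd8 T cells (SE 0.27, adjusted p = 0.00014). Klrb1c-positive T cells went the other way, from 142 and 204 CPM to 82.2 and 125 CPM. Lyz2, the lysozyme gene that leads in monocytes, was 44.7 and 113 CPM in young and 253 and 188 CPM in old Cd8 T cells, where monocytes held 18866 to 26409 CPM. The 9 monocyte markers, Ly6c2 among them, summed to 915 and 761 CPM in young and 1832 and 1890 CPM in old Cd8 T cells. Csf1r was at 0 by the gate. In Cd8 T cells with Ccl5 the sum was 1612 and 1021 CPM in the young and 1845 and 2151 CPM in the old. In those without Ccl5 it was 267 and 480 CPM against 0 and 542 CPM. The part of these markers in the rise of Ccr2 was not tested. In B cells Ccr2 was 1.90 and 3.79 CPM in the young and 16.3 and 6.69 CPM in the old, and the monocyte list moved alongside, at 141 and 264 CPM against 639 and 453 CPM, which was not tested.

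Cx3cr1, the receptor for fractalkine, was a monocyte gene. Monocytes held 229 and 250 CPM in the young and 170 and 181 CPM in the old pools, both old below both young, with no call (log2 difference -0.36, SE 0.17, adjusted p = 0.33). They lay above the DC gate (26.7 to 99.1 CPM) by 2.07 (SE 0.39, adjusted p = 8.1e-05), NK cells (17.2 to 85.1 CPM) followed with no call against the DC gate, and T and B cells were lower still. Ly6c2-low monocytes held 287 and 269 CPM in the young and 253 and 250 CPM in the old, and Ly6c2-high ones 148 and 203 CPM against 114 and 138 CPM. Ccr2 and Cx3cr1 hence stood in opposite order in these monocytes, in every sample. T cells held 4.84 and 5.91 CPM in the young and 16.0 and 15.2 CPM in the old, from 9 to 15 UMIs a sample, and the rise was called only with no filter (1.40, SE 0.45, adjusted p = 0.038; 0.079 under the filter on summed counts).

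**Figure D5:**
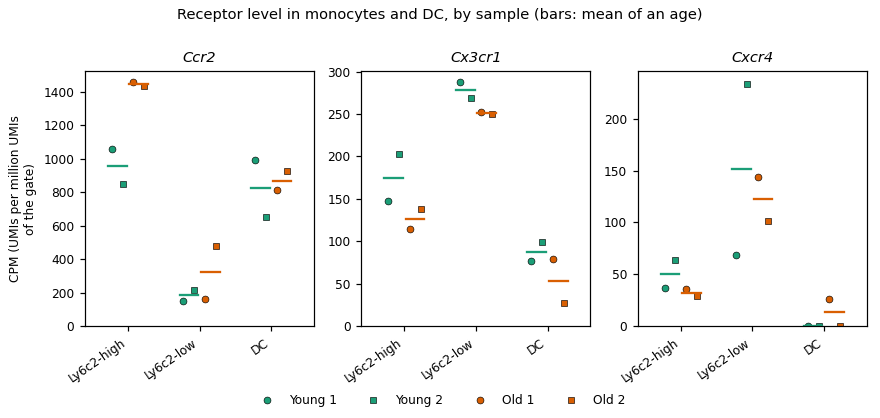
Levels of Ccr2, Cx3cr1 and Cxcr4 (y axes, CPM, each from 0) in Ly6c2-high monocytes, Ly6c2-low monocytes and the DC gate (x axis); green points are young and orange points old samples, circles sample 1 and squares sample 2, bars the mean of an age. Ccr2 was higher in Ly6c2-high cells and Cx3cr1 in Ly6c2-low cells in each of the 4 samples.

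The other genes of chemokine signaling and trafficking were taken as 4 lists. Of 14 further chemokine and atypical receptors, 12 were counted, 1 passed the filter on detection in a gate, and 0 were called by edgeR or had an unadjusted p under 0.05. Of 36 chemokines, 1 was tested in T cells, where 10.1% of all genes were called. It was Ccl5, which rose by 1.60 (SE 0.18, adjusted p = 0.00018), with 3948 and 5806 CPM in young and 18392 and 13662 CPM in old pools. Xcl1 was the 1 of 4 called in NK cells, where 0.454% of all genes were called. It fell by 2.12 (SE 0.41, adjusted p = 0.00088), with 354 and 260 CPM in young and 8.51 and 161 CPM in old pools. Of 34 genes of receptor signaling, 23 were tested in T cells and 2 rose (Gng2 and Gnb2, G protein subunits) and 2 fell (Rgs10, a brake on G protein signaling, from 331 and 247 CPM to 146 and 163 CPM, and Adrbk1, a receptor kinase), 4 of 23 where 10.1% of all genes were called. The list's median log2 fold change was 0.06, against -0.0064 over all genes tested. In B cells 1 of 21 was called, below the 7.57% of all genes, namely Ptk2b, which fell by 0.88 (SE 0.09, adjusted p = 0.015), and in monocytes 0 of 27 were, against 1.57%. Of 15 other trafficking genes, 13 were tested in T cells, and 4 rose (Itgb1, Cd44, Itgb7 and Selplg) and 1 fell, where 10.1% of all genes were called. The median log2 fold change was 0.34 over the 13. In Cd4 T cells 12 were tested, and 2 rose (Itgb1 and Itgb7) and 1 fell, where 1.74% of all genes were called. In Cd8 T cells 2 of 12 rose (Itgb1 and Itgal), where 2.78% of all genes were called. In B cells 1 of 11 was called, against 7.57% of all genes, namely S1pr4, which fell by 0.48 (SE 0.09, adjusted p = 0.047).

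The genes most like 9 of the receptors over the 20 sums of gate and sample (Pearson's r of log2(CPM + 1), 12023 genes) were Inpp4b for Ccr7 (0.95), 5830468F06Rik for Cxcr6 (0.97), Arpc1b for Cx3cr1 (0.95), Fam129a for Ccr2 (0.94), Lrrc16a for Ccr6 (0.90), Dyrk1a for Cxcr4 (0.90), Apobec3 for Cxcr5 (0.89), Adgrg5 for Cxcr3 (0.84) and Ryr1 for Ccr1 (0.78). The 20 sums share libraries and depth, so these are descriptions.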

How the data were processed

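Peripheral blood cells of 2 young and 2 old pools were profiled with 10x Chromium 3′ libraries. The values are raw UMI counts per gene and cell, which the authors obtained with Cell Ranger (mm10) and deposited after aggregating the samples of an age and keeping cells with 500 to 4000 genes and under 10% mitochondrial reads (Seurat 2.3.0, per the submitters' processing notes). Neither the annotation release nor any equalising of read depth was stated in the sources used here. Each cell's sample came from the deposited cell list.

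Cells were gated on raw UMIs. A B cell had at least 3 UMIs of Cd79a and Cd79b, a T cell at least 2 of Cd3d, Cd3e and Cd3g, an NK cell at least 2 of Ncr1, Klre1 and Klrb1c with Nkg7 and no Cd3 UMI, a monocyte Csf1r and at least 4 of Csf1r and Lyz2, and a DC at least 2 of Cd209a. Gates other than B allowed at most 1 Cd79 UMI, B, monocyte and DC gates at most 1 T and 1 NK marker UMI, the B, T and NK gates no Csf1r, and no gate but DC any Cd209a. The T gate set no limit on NK markers. Doublets were not called otherwise. UMIs were summed per gate and sample, and age was tested on these sums by the quasi-likelihood method of edgeR 4.0.16 with TMM factors, for genes with a UMI in at least 10% of the gate's cells of each age. P-values were adjusted after Benjamini and Hochberg over all genes of a gate, and called under 0.05. Levels between gates and unequal age differences were tested on 20 sums with the sample as a block, over genes with at least 20 UMIs. Other subsets were described without a test. Shares are of cells thinned to 1000 UMIs, with exact binomial intervals. The tests within gates were also run on simulated counts with the means and library sizes of these data, and the outcome is not given here.

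Alternatives were DESeq2 1.42.0, other filters, gates and scaling, no cells with platelet or red cell RNA, thinning, a replicate block, and leaving out each sample. Named genes are the 10 receptors, the genes called in 4 lists (at most 5 per list and gate) and the 3 genes most like each receptor, and some of these are not reported here. The receptors, gates and lists were chosen with earlier results of these data known. R 4.3.3 with limma 3.58.1 was used, and Python 3.11.15 with pandas 2.3.3, numpy 2.4.6, matplotlib 3.10.9 and scipy 1.17.1.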

Additional observations from a re-analysis of the deposited data

Results flagged for a closer look

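The age difference of 2 receptors was unequal between the 5 gates by a test of the age-by-gate terms, which is what marked them for a second look. For Ccr2 (adjusted p = 4.9e-12), both old pools lay above both young pools in B cells, T cells and monocytes. B cells held 16.3 and 6.69 CPM in old against 1.90 and 3.79 CPM in young pools. T cells held 113 and 147 CPM against 34.5 and 60.7 CPM, and monocytes 878 and 1086 CPM against 470 and 410 CPM. In NK cells both old pools lay below both young ones (102 and 264 CPM against 292 and 270 CPM). The log2 difference there turned from -0.68 to 0.082 without old replicate 1. In the DC gate the ages overlapped. The call held without any 1 sample, with adjusted p-values of 1.7e-17 to 0.00073, and was lost with DESeq2 (adjusted p = 0.081). For Ccr9 (adjusted p = 0.0033), both old pools lay below both young pools in the T and DC gates. T cells held 20.0 and 28.4 CPM in young and 2.66 and 1.69 CPM in old pools. The DC gate held 76.1 and 19.8 CPM against 0 and 8.89 CPM, from 5 UMIs in all. B cells held 1.90 to 3.04 CPM, and NK cells and monocytes had 0 UMIs. The call for Ccr9 was lost without any 1 sample (adjusted p 0.053 to 0.30), with stricter gates (0.30) and thinned (0.19). With groups of 2, no single sample was tested for standing apart.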

How the results depend on the processing

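Every alternative changed 1 choice, and the cause of a change was not tested. In the B gate, 0 receptors were called, but 2 without TMM and 2 without a filter, and 0 to 1 without 1 sample. Of all its genes 203 were called, 549 with DESeq2, 378 without TMM, 643 with filterByExpr, 926 without a filter, 89 with the replicate block and 130 thinned, and 0 (without young 1 or young 2) to 892 (without old 2) with 1 sample left out. In the T gate, 2 receptors were called, but 4 with filterByExpr, 5 without a filter and 1 thinned, and 1 to 2 without 1 sample. Among all genes tested 264 were called, 158 with DESeq2, 169 without TMM, 667 without a filter, 149 with stricter gates and 154 thinned, and 134 (without old 1) to 245 (without young 2) with 1 sample left out. In the NK gate, 0 receptors were called, also without any 1 sample. Over all genes, 11 were called, 3 with DESeq2, 4 without TMM, 6 with filterByExpr, 0 without a filter, 1 with stricter gates, 3 with looser gates, 2 with wider gates, 2 without cells with platelet or red cell RNA and 1 thinned, and 7 (without young 1) to 16 (without old 2) with 1 sample left out. In the monocyte gate, 1 receptor was called, and 0 to 2 without 1 sample. Of all its genes 48 were called, 76 with filterByExpr, 199 without a filter, 21 with the replicate block, 19 with stricter gates, 162 with wider gates, 21 without cells with platelet or red cell RNA and 12 thinned, and 0 (without young 2) to 55 (without old 2) with 1 sample left out. In the DC gate, 0 receptors were called, also without any 1 sample. Among all genes tested 3 were called, 0 with DESeq2, 6 without TMM, 0 with filterByExpr, 9 without a filter, 1 with the replicate block, 0 with looser gates, 7 with wider gates, 0 without cells with platelet or red cell RNA and 0 thinned, and 0 (without young 1 or young 2) to 8 (without old 1) with 1 sample left out. In the Fcer2a-positive B gate, 0 receptors were called, but 2 without a filter, and 0 to 1 without 1 sample. Over all genes, 10 were called, 16 with DESeq2, 37 without TMM, 152 with filterByExpr, 350 without a filter, 104 with the replicate block, 16 with stricter gates, 4 with looser gates, 21 without cells with platelet or red cell RNA and 0 thinned, and 0 (without old 1) to 46 (without young 2) with 1 sample left out. In the Cd4 T gate, 0 receptors were called, but 1 with filterByExpr and 1 without a filter, and 0 to 1 without 1 sample. Of all its genes 43 were called, 66 with DESeq2, 67 with filterByExpr, 208 without a filter, 87 with the replicate block, 19 with stricter gates and 20 with wider gates, and 18 (without young 1) to 149 (without old 2) with 1 sample left out. In the Cd8 T gate, 2 receptors were called, but 1 without TMM, 4 with filterByExpr, 4 without a filter and 1 thinned, and 1 to 2 without 1 sample. Among all genes tested 77 were called, 41 without TMM, 121 with filterByExpr and 260 without a filter, and 53 (without young 1) to 144 (without young 2) with 1 sample left out. In the Ly6c2-high monocyte gate, 0 receptors were called, but 1 without a filter, 1 with the replicate block and 1 with wider gates, and 0 to 1 without 1 sample. Over all genes, 1 were called, 0 with DESeq2, 52 without a filter, 39 with the replicate block, 2 with stricter gates, 40 with wider gates, 2 without cells with platelet or red cell RNA and 0 thinned, and 0 (without old 1 or old 2) to 32 (without young 2) with 1 sample left out.

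The replicate numbers of the labels name pools and nothing ties pools of the same number, and the deviations of same-numbered samples from their age means had correlations of -0.129 to 0.0969, so the fit with the number as a replicate block is given as an alternative. It changed no receptor call but that of Ccr2 in Ly6c2-high monocytes, called there with an adjusted p of 0.0056. With the crossed numbers as a block, added after seeing a correlation under -0.1, the genes called numbered 0 in B, 170 in T, 15 in NK, 208 in monocyte, 0 in DC, 48 in Fcer2a-positive B, 92 in Cd4 T, 46 in Cd8 T, 17 in Ly6c2-high monocyte cells, and the receptors called 1 in T, 1 in monocyte, 2 in Cd8 T cells. Wider gates were also added after seeing the data.

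Between pairs of gates, 64 of 100 receptor contrasts were called, 54 to 65 in the alternatives that tested 100, and 51 of 80 with filterByExpr, which tested 8 receptors. For an age difference unequal between gates, 2 receptors were called, but 0 with DESeq2, 1 with filterByExpr, 1 with stricter gates and 1 thinned, 3 without TMM and with looser gates, where Cx3cr1 was added (adjusted p 0.027 and 0.028), and 1 to 2 without 1 sample; of all genes 424, 214 with DESeq2, 194 with filterByExpr, 226 with stricter gates and 209 thinned, and 149 to 535 without 1 sample. Ccr7 in T and in Cd8 T cells stayed called in all 15 alternatives, with log2 fold changes of -1.79 to -0.98 and -2.20 to -1.35. Cxcr3 was called in 12 of 15 in both, at 0.62 to 1.22 (adjusted p 2.7e-05 to 0.069) and 0.93 to 1.65 (3.5e-05 to 0.10). It was lost in both without old replicate 2 and thinned, in T cells also with the crossed block and in Cd8 T cells without TMM. Ccr2 in monocytes was called in 14 of 15, at 1.07 to 1.43 (2.2e-15 to 0.14), and lost without young replicate 2. In B cells Ccr7 (adjusted p = 0.0057) and Cxcr4 (0.029) were called without TMM, and Cxcr4 in Fcer2a-positive B cells without young replicate 1 (0.013). Without a filter and with filterByExpr, Ccr9 and Ccr2 were called in T and Cd8 T cells too, and without a filter also Cx3cr1 in T cells (0.038) and Ccr1 and Ccr2 in B (0.047 and 0.025) and Fcer2a-positive B cells (0.0020 and 2.0e-07). In Fcer2a-positive B cells the ages overlapped for both, and each call stands on 1 pool. Ccr1 was high in old sample 2 (32.0 CPM). Ccr2 was high in old sample 1 (24.6 CPM, 45 UMIs), beside 1.43 to 3.09 CPM in the other samples. Of the differences not called, some turned direction with 1 sample left out. These ranged over -1.41 to 0.082 for Ccr2 in NK cells, -0.50 to 0.10 for Cxcr6 in T and -0.021 to 0.68 in Cd8 T cells, -1.29 to 0.46 for Cxcr4 in monocytes and -0.81 to 0.32 in Fcer2a-positive B cells, -0.72 to 0.044 for Ccr7 in Fcer2a-positive B cells, and -1.53 to 6.38 for Ccr1 in Ly6c2-high monocytes, where young 2 had 0 UMIs. Ccr2 in the DC gate turned to -0.049 with looser gates and -0.44 thinned. Of 150 shares of cells with a receptor UMI, 123 were higher unthinned. The stricter DC gate left under 5 cells in a sample and was not run. With 2 pools per age, the tests within gates had little to measure the spread between pools by. A low p-value there can stand on 1 pool, as for Ccr2 in Fcer2a-positive B cells without a filter. The tests between gates and of unequal age differences took the sample as a block. A shift shared by all gates of a pool hence does not enter their p-values. An exact permutation test of the ages could not go below 0.333. The 10% filter left Ccr6 and Ccr9 untested in every gate and Ccr1 in every gate but Ly6c2-high monocytes.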

Other observations

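Among receptors outside the 10, Cmklr1, the chemerin receptor, was highest in NK cells, at 34.4 and 40.1 CPM in the young and 42.5 and 14.7 CPM in the old pools. Ccr10 had 13 UMIs in the T gate of old sample 2 (22.0 CPM), 7 of them in its 12 Cd8 T cells without Ccl5, beside 6, 4 and 0 UMIs in the T gates of young 1, young 2 and old 1. Ackr3, a scavenging receptor for Cxcl12, had 20 UMIs in the B gate of old sample 1, 18 of them in S100a6-positive cells, and 0 UMIs in every other sample and gate. These genes were picked out after their values were seen.

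The genes next most alike over the 20 sums, after the first of each receptor, with Pearson's r, were Ss18l1 (0.78) and Plxnd1 (0.77) for Ccr1, Fxyd5 (0.94) and St3gal4 (0.93) for Ccr2, Cd200 (0.89) and Mif4gd (0.88) for Ccr6, Orc6 (0.92) and Rps27 (0.89) for Ccr7, 2610301B20Rik (0.77) and Ctdnep1 (0.76) for Ccr9. For the remaining receptors they were Rnf125 (0.83) and Dpcd (0.83) for Cxcr3, Gpcpd1 (0.88) and Fam175b (0.87) for Cxcr4, Eif4a2 (0.87) and Vars (0.87) for Cxcr5, Camk4 (0.97) and Tnfaip8l1 (0.96) for Cxcr6, and Mrpl33 (0.94) for Cx3cr1.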
